A study of Mus musculus with 14 samples.

Results

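The promoters of the cytosolic ribosomal protein genes were examined in ATAC-seq libraries of splenic regulatory T cells (Tregs). A region of the deposited table was a member when its midpoint lay within 1 kb of an annotated start of a protein-coding gene whose symbol begins with Rpl or Rps and a digit, or with Rplp or Rpsa, leaving out the Rps6k kinases and pseudogenes. This rule used no measured value and took 94 of 67254 regions. These belonged to 81 of the 89 genes with such symbols, and 13 genes had more than 1 region. The 8 genes with no region were Rps25, Rps19bp1, Rps23rg1, Rps27rt, Rpl3l, Rpl10l, Rpl32l and Rpl39l. The symbol rule also took Rps27l, Rpl22l1, Rpl36al, Rpl7l1 and Rpl37rt, which are paralogues or relatives of ribosomal protein genes. Of the member regions, 59 lay at large subunit genes and 35 at small subunit genes, and all 94 passed the filter on low counts.

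ATAC-seq counts how often a transposase cuts into chromatin, so that a higher count marks a more accessible region. The study compared central Tregs (cTregs, CD4+Foxp3-YFP+CD44-CD62L+) with effector Tregs (eTregs, CD4+Foxp3-YFP+CD44+CD62L-), each from control (Foxp3Cre Atg14+/fl; n = 3 libraries per population) and Atg14-deficient (Foxp3Cre Atg14fl/fl; n = 4 libraries per population) cells. Both genotypes carried the Foxp3-driven YFP-Cre, which deletes in Foxp3-expressing cells. The control genotype had 1 floxed Atg14 allele, which this Cre can delete, beside a wild-type allele. The cells were CD45.2+ cells of mixed bone marrow (BM) chimeras, in which BM of either genotype had been transferred at equal parts with CD45.1+ wild-type BM into sublethally irradiated Rag1-/- hosts, which lack T and B cells of their own, 6-8 weeks before the experiment. The mice were of the C57BL/6 background. Atg14 is the subunit that directs the Vps34 lipid kinase to autophagosome formation.

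Ribosomal proteins form, with the ribosomal RNAs, the large and the small subunit of the cytosolic ribosome, and cells make them in matched amounts. Their genes are among the most highly transcribed, mostly from CpG-rich promoters without a TATA box. Many of their transcripts begin with a C and a run of pyrimidines, the 5' terminal oligopyrimidine (TOP) tract, through which mTORC1 signaling controls their translation. T cells raise ribosome production when they are activated, and eTregs are activated cells. Autophagy can in turn break down ribosomes. The design allows these promoters to be compared between genotypes in each Treg state and between the states in each genotype.

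The RefSeq promoter table (GRCm38.p6) held 61 of the 81 member genes. The following windows run from 100 bases before to 30 bases after the annotated start, 5' to 3' on the strand of the gene, and each lies inside a deposited member region. Rpl37 and Rpl27a are shown because their regions differed between eTregs and cTregs in both genotypes, Rps19, Rpl38 and Rpl13 because theirs passed the threshold in Atg14-deficient cells, and Rps6 because its region had the smallest p of all members for Atg14 loss in eTregs. Capitals mark matches to the motifs described next and a TOP-like run at the start.
Rpl37 (chr15:5116513-5116642, plus strand): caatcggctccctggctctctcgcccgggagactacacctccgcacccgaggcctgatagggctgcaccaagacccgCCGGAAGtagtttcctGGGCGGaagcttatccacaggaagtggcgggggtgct
Rpl27a (chr7:109519095-109519224, plus strand): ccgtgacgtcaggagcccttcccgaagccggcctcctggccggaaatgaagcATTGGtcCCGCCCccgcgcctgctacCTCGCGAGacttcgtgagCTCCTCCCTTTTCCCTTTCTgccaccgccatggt
Rps19 (chr7:24884492-24884621, plus strand): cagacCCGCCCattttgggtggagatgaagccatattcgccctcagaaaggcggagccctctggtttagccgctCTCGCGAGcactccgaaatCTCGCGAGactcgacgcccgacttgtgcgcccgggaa
Rpl38 (chr11:114668480-114668609, plus strand): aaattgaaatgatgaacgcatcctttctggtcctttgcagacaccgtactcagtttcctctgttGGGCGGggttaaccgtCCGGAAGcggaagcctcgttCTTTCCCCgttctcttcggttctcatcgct
Rpl13 (chr8:123102250-123102379, plus strand): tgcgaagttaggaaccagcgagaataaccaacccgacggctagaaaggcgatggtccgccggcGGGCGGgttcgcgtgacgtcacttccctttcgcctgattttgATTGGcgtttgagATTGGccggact
Rps6 (chr4:86857338-86857467, minus strand): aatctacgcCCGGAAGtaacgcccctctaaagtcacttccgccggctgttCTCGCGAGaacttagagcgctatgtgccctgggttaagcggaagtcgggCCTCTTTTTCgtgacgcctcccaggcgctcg
In these windows Rpl38 carried the run CTTTCCCC from its annotated first base, Rpl27a the run CTCCTCCCTTTTCCCTTTCT from 4 bases upstream of it, and Rps6 the run CCTCTTTTTC from 1 base upstream. Rps19 carried the palindrome CTCGCGAG at both marked positions, and Rpl37 carried the ETS word CCGGAAG.

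Over the whole 300 bp of the promoter table (250 bases before to 50 after the start), the ETS/GABP core CCGGAAG was found on either strand in 22 of the 61 member promoters (36.1%), against 11.8% of 17423 other protein-coding promoters. The palindrome CTCGCGAG, named here ZBTB33-like, was in 7 member promoters (11.5%) against 1.27%. The YY1 core AAGATGGC was in 5 (8.20%) against 3.21%, and the SP/KLF core GGGCGG in 38 (62.3%) against 46.3%. The NF-Y core CCAAT was in 21 (34.4%) against 39.1%, the E-box CACGTG in 5 (8.20%) against 7.90%, and the NRF1 core GCATGCGC in 3 (4.92%) against 3.61%. The TATA box word TATAAA, searched on the sense strand in the 50 bases before the start, was in 1 member promoter (1.64%) against 3.56%. A TOP-like start, a C followed by at least 4 pyrimidines that begins within 10 bases of the annotated start, was in 32 member promoters (52.5%) against 31.1%. None of these words contains another. A match is a description of the letters only, and the starts are annotated ones, not measured in these cells.

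**Figure D1:**
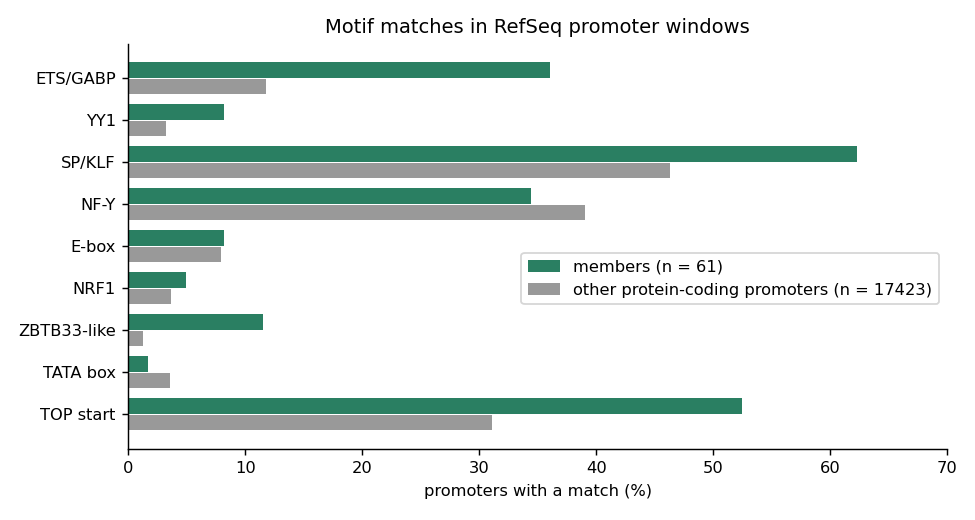
Share of promoters (horizontal axis, percent) with a match to each motif, in 61 member promoters (green) and 17423 other protein-coding promoters (grey) of the RefSeq table. The ETS/GABP (36.1% against 11.8%) and ZBTB33-like (11.5% against 1.27%) words and the TOP start (52.5% against 31.1%) were more frequent in members.

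The libraries held 2242983 to 5548189 counts, of which 52.0% to 58.5% lay in regions within 1 kb of a protein-coding start, and replicates of a group correlated at 0.850 to 0.911. Levels are given as CPM, counts scaled to a library total of 1000000. The 4 regions at Atg14 had counts in every library, its promoter at 22.5 to 35.2 CPM in control and 16.8 to 25.7 CPM in Atg14-deficient cTregs and at 19.8 to 31.2 and 20.9 to 29.3 CPM in the eTregs. The sources used here do not give the floxed part of the gene, so these regions check no genotype label. Of the marker promoters, those of Ctla4 (45.5 to 70.5 CPM in cTregs), Ikzf2 and Il2ra were accessible, while Foxp3 and Cd4 had no region within 1 kb of a start. Markers of B cells and of myeloid cells had no promoter region (0 of 3 genes each). Of the CD8 T cell markers, Cd8a had no promoter region, and Cd8b1 was at 10.3 to 21.4 CPM in cTregs and at 1.54 to 6.83 CPM in eTregs. The part of Cd8b1 in the differences between states was not tested. Of the NK cell markers, Ncr1 had no promoter region and Klrb1c was at 0 to 5.99 CPM. ATAC-seq on bulk cells cannot tell fewer cells with an open region from a lower rate of cutting in each cell.

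Member promoters were accessible in all 4 groups and spanned a wide range. The 94 regions had a median of 30.0 CPM, against 21.5 CPM for the 14683 other promoter regions, and per length the medians were 51.2 and 38.7 CPM per kb. With the highest region alone taken for each of the 81 genes, a choice not made for other promoters, the medians were 36.3 CPM and 56.4 CPM per kb. On the latter scale 58 of the 81 genes were above the median of all promoter regions and 15 were among its highest 10%. The median length of the 94 regions was 496 bp against 514 bp for other promoter regions, their median GC content 59.4% against 61.8%, and they held a median of 7.65 CpG dinucleotides per 100 bp against 7.07. The midpoint lay within 200 bp of a start in 72 of the 81 highest regions. The 90 regions at genes of the mitochondrial ribosome (Mrpl and Mrps), which is built from separate proteins, had a median of 43.4 CPM per kb.

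Rpl37, a large subunit protein, was among the highest members at a mean level of 132 CPM and had the highest level per length among members, 252 CPM per kb. Rpl22l1, a paralogue of Rpl22, was at 127 CPM and 135 CPM per kb. These values do not rank transcription, since 19 member regions also lie within 1 kb of the start of another protein-coding gene, among them that of Rpl37, which shares its window with Card6. The lowest levels were those of the second region of Rps7 in its gene body (2.52 CPM), the second, upstream region of Rpl9 (2.88 CPM) and the region of Rpl37rt (3.02 CPM). At such levels a library held few counts, and 8 members had a mean count under 20.

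**Figure D2:**
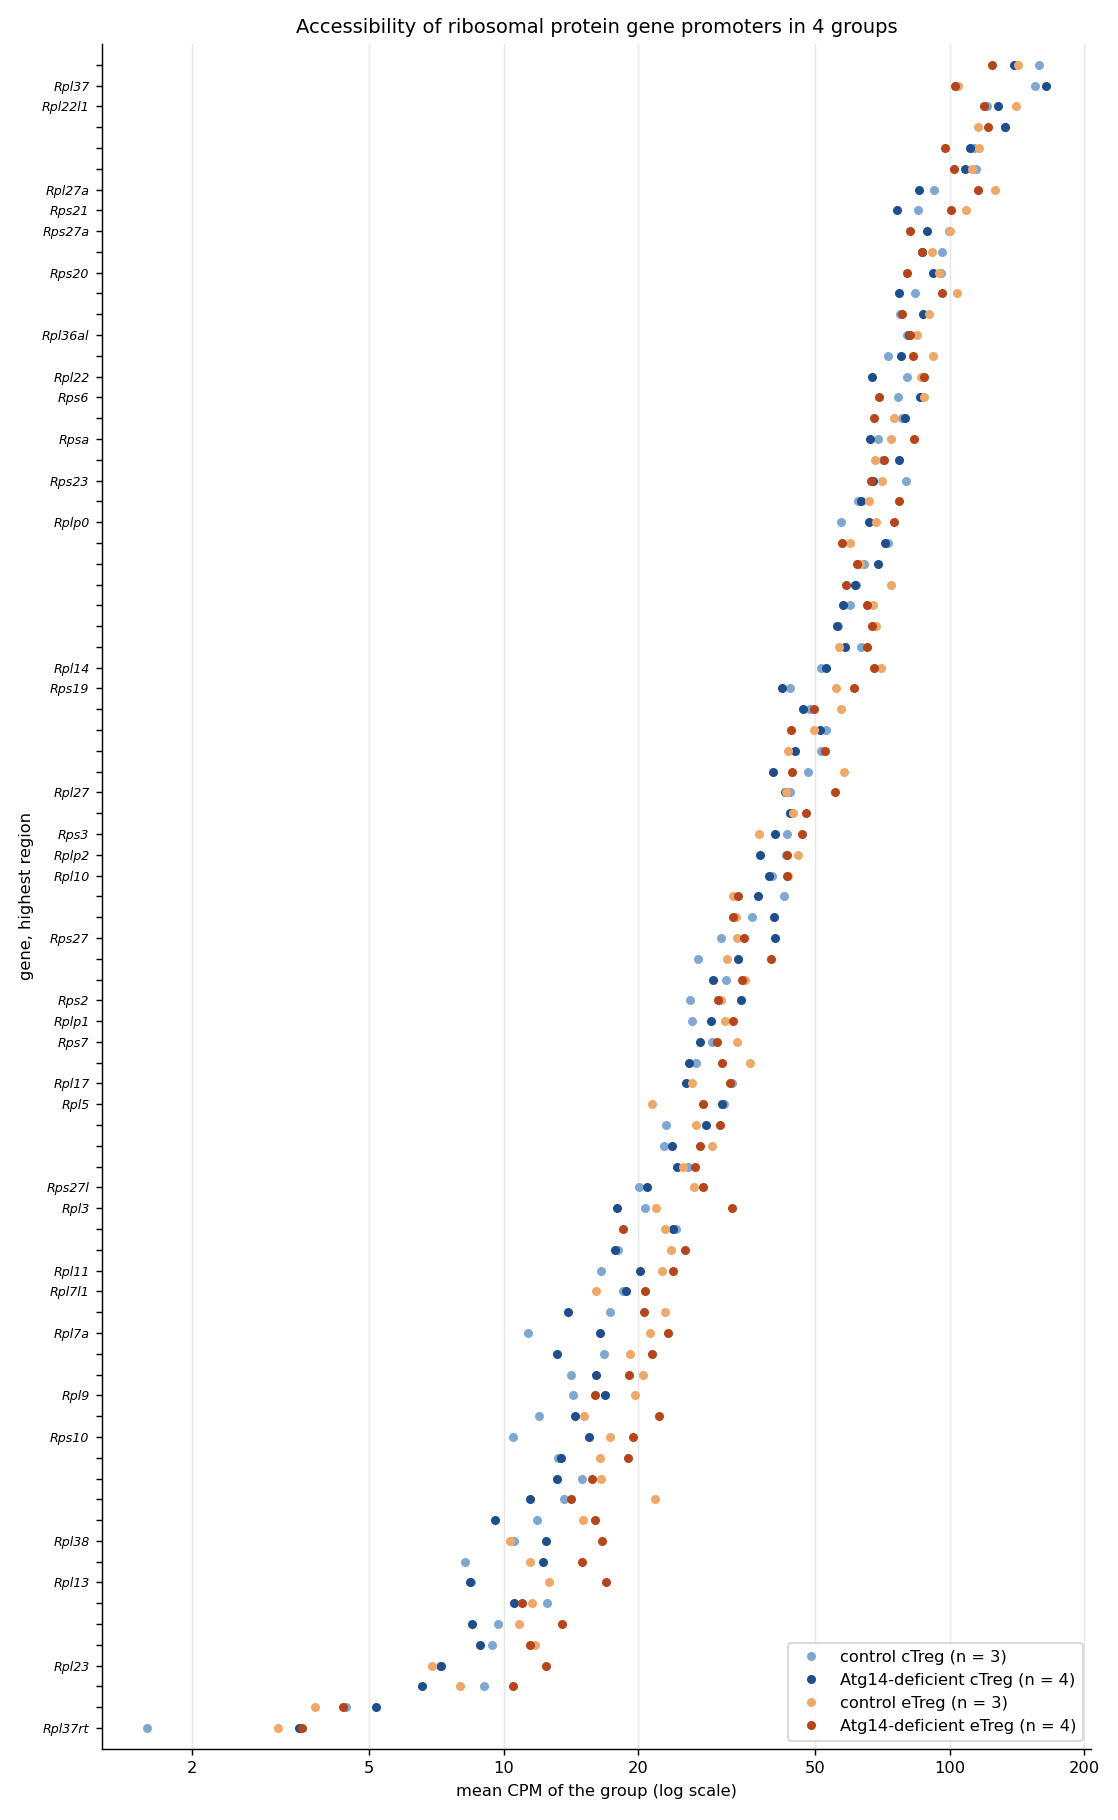
Mean CPM (horizontal axis, log scale) of the highest region of each of the 81 member genes (rows, ordered by level, with a name for genes described in the text) in control cTregs (light blue, n = 3), Atg14-deficient cTregs (dark blue, n = 4), control eTregs (light orange, n = 3) and Atg14-deficient eTregs (dark orange, n = 4). Means over all libraries were 3.02 CPM for Rpl37rt at the bottom and 132 CPM for Rpl37 near the top, and the 4 groups of a gene lie close together on this scale.

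Among the genes with particular roles, the stalk proteins stood at intermediate levels. Rplp0, the base of the ribosomal stalk, was at 57.1 ± 6.22 CPM (SD, n = 3) in control cTregs, 66.0 ± 2.00 (n = 4) in Atg14-deficient cTregs, 68.5 ± 0.982 (n = 3) in control eTregs and 75.2 ± 7.46 (n = 4) in Atg14-deficient eTregs. Its partners Rplp1 and Rplp2 were at 26.4 to 32.7 and 37.5 to 45.6 CPM over the 4 group means. None of the 3 had an adjusted p under 0.05 in any comparison. Rpl5 and Rpl11, which with 5S rRNA bind Mdm2 when ribosome assembly fails, had group means of 21.5 to 31.2 CPM and 16.5 to 24.0 CPM. Rpsa, which is also known as the laminin receptor, was at 66.2 to 83.4 CPM, and Rps3, which sits at the mRNA entry channel, at 37.4 to 46.6 CPM. Rpl10, which joins the large subunit late in its assembly, was at 39.4 to 43.3 CPM. Rps27 was at 30.7 to 40.6 CPM and its p53-responsive paralogue Rps27l at 20.1 to 28.0 CPM. For these genes (Rpl5 with its start region) no comparison passed the adjusted threshold.

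The members together took a nearly constant part of each library. Their summed count was 0.391% ± 0.0156 (SD, n = 3) of all counts in control cTregs and 0.386% ± 0.00760 (n = 4) in Atg14-deficient cTregs. In eTregs it was 0.411% ± 0.0113 (n = 3) in control and 0.403% ± 0.0124 (n = 4) in Atg14-deficient cells. The ranges of the genotypes overlapped in both populations. Promoter regions as a whole took 55.4% and 53.5% of counts in control and Atg14-deficient cTregs and 56.5% and 55.3% in the eTregs, and the members' share of promoter counts was 0.706%, 0.722%, 0.727% and 0.729% in the same order. The coefficient of variation between libraries of a group, over the 41 highest regions with the middle 50% of mean counts, had medians of 12.4% to 13.2% in the 4 groups. Other promoter regions with the same range of counts had medians of 12.3% to 15.1%.

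Whether loss of Atg14 altered these promoters was asked first in eTregs. Counts of all 61366 regions that passed the filter were fitted together by the quasi-likelihood test of edgeR, with p-values adjusted over all of them by the Benjamini-Hochberg method, and a region was called at an adjusted p under 0.05 and a log2 fold change beyond 0.5. No member region was called, against 0.0228% of all regions tested, and the DESeq2 Wald test also called none. At an unadjusted p under 0.05 with the same fold, 6 members were higher and 1 was lower in Atg14-deficient eTregs, where 4.59% of all regions were higher and 1.77% lower. This total of 7 was 2 to 5 with a single library left out, 2 without control eTreg replicate 3 or Atg14-deficient eTreg replicate 4, 3 without control eTreg replicate 1 and 4 without Atg14-deficient eTreg replicate 1. Over all regions the share by that rule, in both directions together, was 6.36% with every library and 5.31%, 5.25%, 4.65% and 5.75% in these 4 fits. The median log2 fold change of the members was 0.00, against 0.01 for promoter regions and 0.06 for all regions, and 84 of the 94 lay within 0.5 of 0. The median standard error of a member was 0.20 on the log2 scale.

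Rps6, the small subunit protein that S6 kinases phosphorylate downstream of mTORC1, had the smallest p. Its region was at 97.9, 76.4 and 88.0 CPM in the control eTregs and at 67.7, 72.0, 75.2 and 62.9 CPM in the Atg14-deficient eTregs. All 4 Atg14-deficient libraries were below the 3 controls, by a log2 fold change of -0.33 ± 0.12 (SE), with an adjusted p of 0.50. Rps27a, which encodes ubiquitin fused to a ribosomal protein and shares its window with Clhc1, was also lower in each of the 4 Atg14-deficient libraries (77.0 to 84.2 CPM) than in the controls (91.3 to 107 CPM), by -0.30 ± 0.12 (adjusted p = 0.55). In the other direction Rpl23, another protein that binds Mdm2, had 9.11, 6.56 and 5.05 CPM in control and 7.49, 15.1, 11.1 and 16.2 CPM in Atg14-deficient eTregs, and the groups overlapped (log2 fold change 0.87 ± 0.33, adjusted p = 0.52). Rpl27 (0.38 ± 0.15, adjusted p = 0.53) and Rpl3 (0.59 ± 0.24, adjusted p = 0.54) likewise overlapped between the groups, and the value of Rpl3 was 0.34 without Atg14-deficient eTreg replicate 4. None of these differences passed the adjusted threshold.

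In cTregs no member was called for genotype by edgeR or by the DESeq2 Wald test, against 0.0163% of all regions, and none passed the unadjusted p with the fold in either direction, where 1.99% of all regions were higher and 1.35% lower. With any 1 of the 7 cTreg libraries left out, 1 to 3 members passed that rule, 3 without Atg14-deficient cTreg replicate 3, 2 without Atg14-deficient cTreg replicate 2 and 1 without each of the others, where 3.01% to 4.28% of all regions passed it. Their median log2 fold change was -0.02, against -0.04 for promoter regions and 0.03 for all regions. The smallest p belonged to Rpl22, a large subunit protein that some T cell leukemias lose. Its region was at 79.9, 74.4 and 86.5 CPM in control and at 73.1, 59.2, 69.9 and 66.2 CPM in Atg14-deficient cTregs, with no overlap. The log2 fold change was -0.25 ± 0.12 and the adjusted p 1.00. Rps10 (0.54 ± 0.27), Rpl7a (0.56 ± 0.29), Rps27 (0.40 ± 0.21) and Rps23 (-0.24 ± 0.13) followed, each with an adjusted p of 1.00, and the value of Rpl7a was 0.34 without control cTreg replicate 1.

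The difference between the genotype effects in eTregs and in cTregs was tested as an interaction in the same fit. No member was called, nor was any of the regions tested (0%), and the DESeq2 Wald test called no member. By the unadjusted rule 4 members were higher and none was lower, where 1.9% of all regions were higher and 1.14% lower, and 2 members passed that rule without control cTreg replicate 3, where 3.32% of all regions did. Their median was -0.02, against 0.04 for promoter regions. Rps6 had an interaction of -0.50 ± 0.18 (adjusted p = 1.00), from a level of 76.7 ± 3.56 CPM (SD, n = 3) in control and 86.0 ± 8.10 (n = 4) in Atg14-deficient cTregs. The second region of Rpl5, in its intron at chr5:107901014-107901317, had 1.26 ± 0.48, the start region of Rpl38 1.11 ± 0.44, Rpl3 0.78 ± 0.34 and Rpl17 0.60 ± 0.27, each with an adjusted p of 1.00.

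**Figure D3:**
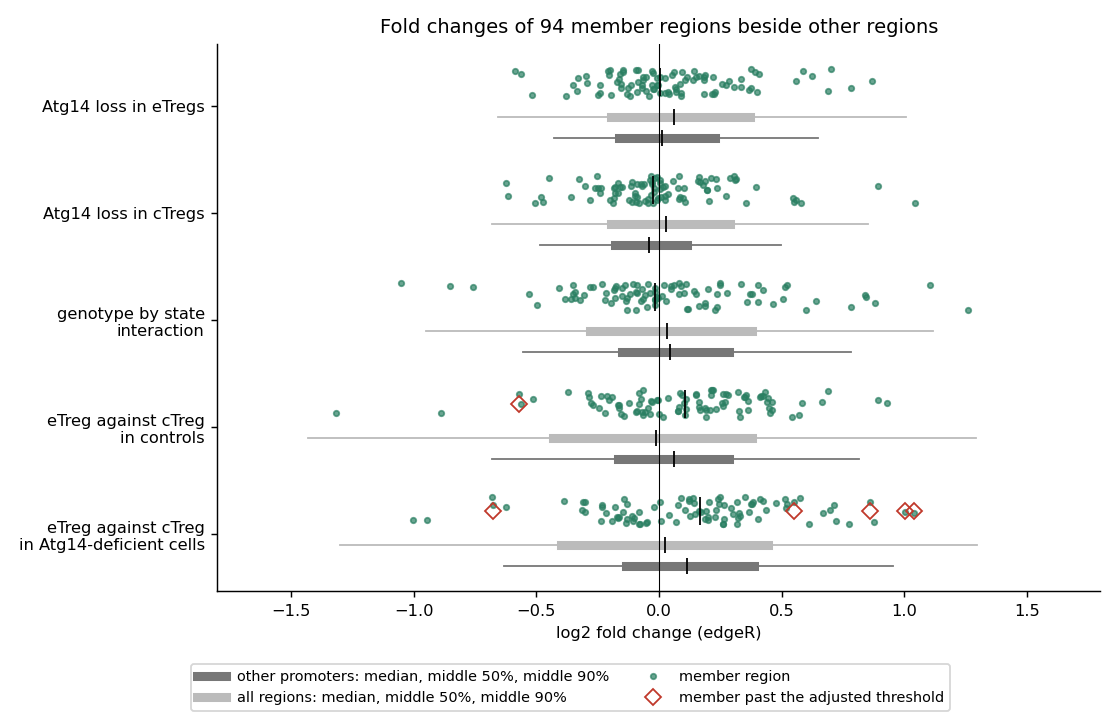
Log2 fold changes (horizontal axis, edgeR) of the 94 member regions (green points, with a black bar at their median) in the 5 comparisons, above bars for all tested regions (light grey) and the other promoter regions (dark grey). Thick bars span the middle 50% and thin lines the middle 90%. Red diamonds mark the members past the adjusted threshold, 1 in the control and 5 in the Atg14-deficient comparison of eTregs with cTregs, and members clustered around 0 in the 3 comparisons of genotype.

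Between eTregs and cTregs of control mice, 1 member passed the adjusted threshold, and it was less accessible in eTregs. This was 1 of 94 lower, where 3.29% of all regions were called lower, and none higher, where 2.01% were. By the unadjusted rule 4 members were higher and 3 lower, against 7.76% and 10.4% of all regions, and 3 passed it without control eTreg replicate 1, where the share of all regions went from 18.2% to 14.9%. The median member was 0.11 higher on the log2 scale, against 0.06 for promoter regions, and small subunit members had a median of 0.19 and large subunit members of 0.08, an order that was turned in Atg14-deficient cells (0.13 and 0.17). The member called was the region of Rpl37, a zinc-finger protein of the large subunit, at chr15:5116251-5116774. Its level was 167, 136 and 163 CPM in control cTregs and 111, 86.3 and 116 CPM in control eTregs. The groups did not overlap, and the log2 fold change was -0.57 ± 0.13 (adjusted p = 0.0090). Without control cTreg replicate 1 the adjusted p was 0.066, and without control eTreg replicate 2 it was 0.071 with a log2 fold change of -0.45.

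Rpl27a, of the large subunit, went the other way. Its region at chr7:109518772-109519701 was at 83.8, 102 and 90.1 CPM in control cTregs and at 134, 114 and 130 CPM in control eTregs, with no overlap. The log2 fold change of 0.45 ± 0.13 had an adjusted p of 0.033 but was short of the fold threshold. Rpl7a, which shares its window with Med22, had the highest fitted log2 fold change of all members, with 7.82, 11.5 and 14.7 CPM in cTregs and 23.4, 22 and 18.4 CPM in eTregs, or 0.93 ± 0.30 (adjusted p = 0.060). The groups did not overlap, and the region passed the threshold in the DESeq2 Wald test (adjusted p = 0.033). Rpl14 was at 51.4 ± 5.12 and 70.3 ± 8.14 CPM (SD, n = 3 each) and did not pass the test (0.44 ± 0.14, adjusted p = 0.061). Rps21 had 84.8 ± 9.12 and 109 ± 10.9 CPM (0.36 ± 0.14, adjusted p = 0.15).

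In Atg14-deficient cells the same comparison of states called 5 members. 4 of the 94 were higher in eTregs, where 4.41% of all regions were, and 1 was lower, where 5.40% were. By the unadjusted rule 14 were higher and 2 lower, against 11.4% and 11.8% of all regions, and 10 passed it without Atg14-deficient cTreg replicate 3 and 8 without Atg14-deficient eTreg replicate 4, where the share of all regions went from 23.1% to 19% and 19.1%. The median member was 0.17 higher, against 0.12 for promoter regions and 0.02 for all regions. The member called lower was again Rpl37. It was at 179, 156, 181 and 141 CPM in Atg14-deficient cTregs and at 98.3, 98.7, 109 and 106 CPM in Atg14-deficient eTregs. The groups did not overlap, and the log2 fold change was -0.68 ± 0.11 (adjusted p = 0.00043). Rpl27a was again higher with less than the fold threshold, at 85.5 ± 3.79 against 116 ± 14.2 CPM (SD, n = 4 each; 0.44 ± 0.11, adjusted p = 0.012). Neither gene was called for the interaction, -0.11 ± 0.17 for Rpl37 and -0.02 ± 0.17 for Rpl27a. Rpl22 (0.38 ± 0.11, adjusted p = 0.029) and Rps21 (0.40 ± 0.13, adjusted p = 0.037) were likewise higher in Atg14-deficient eTregs with less than the fold threshold.

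The 4 members called higher in Atg14-deficient eTregs were Rpl3, Rpl38, Rps19 and Rpl13. Rpl3, which lies near the peptidyl transferase center, was at 17.6, 15.6, 20.5 and 18 CPM in cTregs and at 22.2, 24.3, 35.7 and 47.8 CPM in eTregs. The groups did not overlap, with 2 of the eTreg libraries above the other 2, and the log2 fold change was 0.86 ± 0.22 (adjusted p = 0.014). In control cells its log2 fold change was 0.08 ± 0.26. The region of Rpl38 at its start, chr11:114668344-114668775, rose from 10.1, 3.89, 12.4 and 7.39 to 19.8, 17.2, 14.8 and 18.7 CPM, or by 1.04 ± 0.29 (adjusted p = 0.022), against -0.06 ± 0.33 in control cells. Rpl38, a large subunit protein needed for translation of some Hox transcripts, had few counts, 42.9 per library on average in this region. Its other region, in an intron, had 44.1 per library on average and was not called. That region had a log2 fold change of 0.42 in Atg14-deficient and -0.09 in control cells.

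Rps19, the gene most often mutated in Diamond-Blackfan anemia, was at 52.5, 37.4, 36.8 and 41.8 CPM in Atg14-deficient cTregs and at 60.8, 51.9, 58.2 and 73.7 CPM in Atg14-deficient eTregs. The groups overlapped slightly, and the log2 fold change was 0.55 ± 0.16 (adjusted p = 0.025), against 0.36 ± 0.18 in control cells (adjusted p = 0.26). Rpl13, of the large subunit, rose from 7.98, 9.34, 6.05 and 10.3 to 11.4, 24.3, 12.7 and 19.5 CPM, without overlap, or by 1.00 ± 0.30 (adjusted p = 0.028), against 0.58 ± 0.34 in control cells (adjusted p = 0.35). The difference between genotypes was not called for any of the 4, with interactions of 0.78 ± 0.34 for Rpl3, 1.11 ± 0.44 for Rpl38, 0.19 ± 0.24 for Rps19 and 0.42 ± 0.45 for Rpl13 (adjusted p = 1.00 each). Each call of the 4 depended on single libraries. Without Atg14-deficient eTreg replicate 4 none was called and Rpl37 was the only call. Rpl38 also lost its call without cTreg replicate 2 or eTreg replicate 1, Rps19 without cTreg replicate 2 or 3 or eTreg replicate 1, and Rpl13 without cTreg replicate 1 or 3 or eTreg replicate 2, while Rpl37 kept its call in all 8. With counts corrected for the GC content of the regions, Rps19 (adjusted p = 0.061) and Rpl13 (adjusted p = 0.055) were not called, and the median of the members was 0.10 against 0.00 for promoter regions. With same-numbered cTreg and eTreg libraries of a genotype taken as a pair, 8 members were called higher and 1 lower, where 7.63% and 7.84% of all regions were, and the 5 named here were among them.

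**Figure D4:**
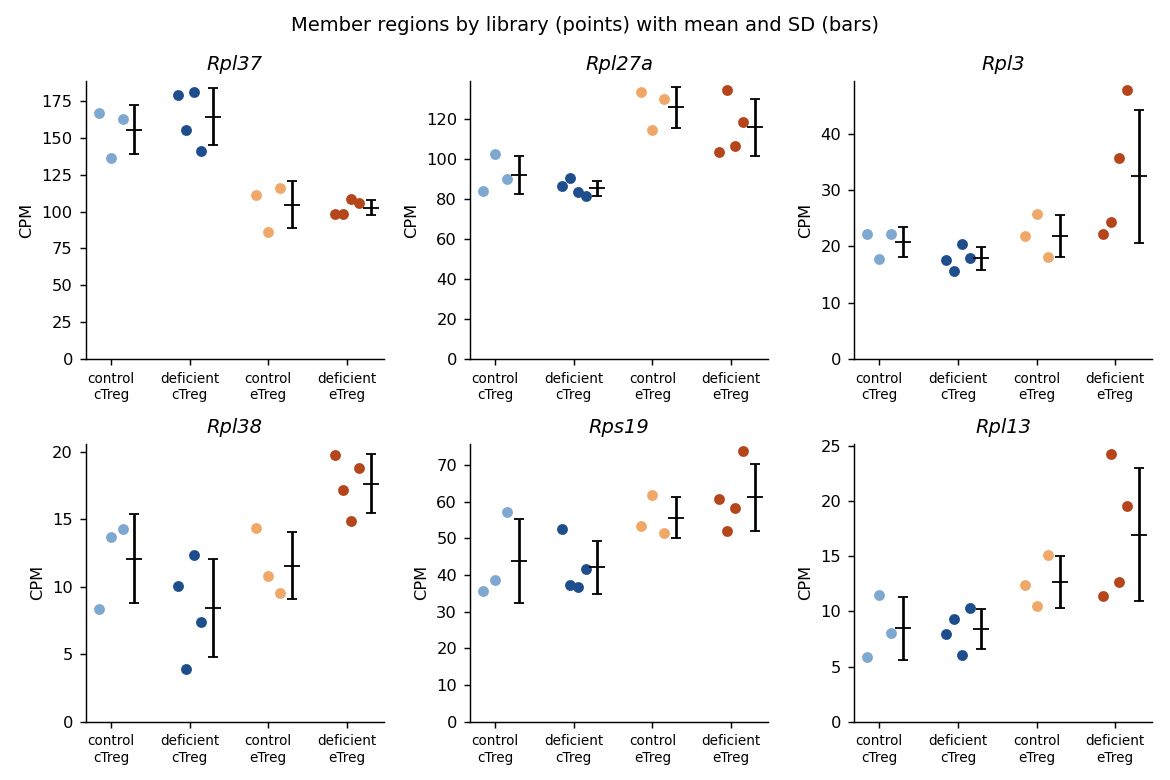
CPM (vertical axes, from 0) of 6 member regions in each library (points) of the 4 groups, with the mean and SD of the group (black bars, n = 3 control and n = 4 Atg14-deficient libraries). Rpl37 was lower and Rpl27a higher in all eTreg than in all cTreg libraries of both genotypes. The log2 fold changes of Rpl3 and of the start region of Rpl38 between states were 0.86 and 1.04 in Atg14-deficient and 0.08 and -0.06 in control cells.

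The comparisons of states in control and in Atg14-deficient cells share no library. Across the 94 members the 2 sets of log2 fold changes correlated at r = 0.45 (Pearson, across regions, which share their libraries and are not independent replicates), and 68 (72.3%) had the same sign. For 14213 other promoter regions the values were r = 0.61 and 72.5%. A total of 46 members were higher in eTregs and 22 lower in both genotypes.

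**Figure D5:**
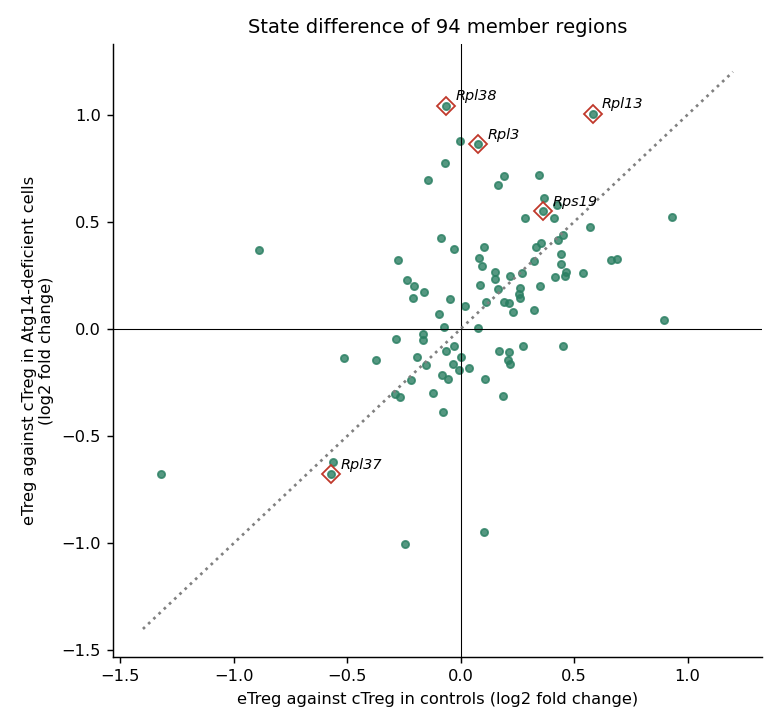
Log2 fold change between eTregs and cTregs of each of the 94 member regions in controls (horizontal axis) and in Atg14-deficient cells (vertical axis), with the members past the adjusted threshold in either comparison marked by red diamonds and named. The dotted line marks equal changes. Rpl37 lies near that line at -0.57 and -0.68, and Rpl38 and Rpl3 lie near 0 on the horizontal axis.

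Of the genes with more than 1 region, Rpl5 had its higher region at the start, chr5:107900320-107900885, with 31.2 ± 3.91 CPM in control cTregs and 21.5 ± 3.84 in control eTregs (SD, n = 3 each), a log2 fold change of -0.51 ± 0.23 (adjusted p = 0.20). Its intronic region had 12.2, 12.2 and 12.5 CPM in control cTregs and 3.25, 6.82 and 9.19 CPM in control eTregs, without overlap (-0.89 ± 0.36, adjusted p = 0.16). In Atg14-deficient cells the log2 fold change was -0.13 ± 0.20 for the start region and 0.37 ± 0.32 for the intronic region, and neither passed the test. The regions of Rps2 and Rps20 overlapped an annotated small nucleolar RNA, a class of guide RNA for rRNA modification that ribosomal protein genes often host in their introns.

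Other genes of the translation machinery were taken from fixed lists in the same fit. Of all regions tested, 0.0228% were called for genotype in eTregs, 0.0163% in cTregs and 0% for the interaction. Between the states 5.3% were called in control and 9.81% in Atg14-deficient cells. Fau and Rack1, ribosomal proteins outside the symbol rule, had a region each, and neither was called in any comparison. Fau had a log2 fold change of 0.83 in Atg14-deficient eTregs against cTregs (adjusted p = 0.059). Of 15 translation factors with TOP transcripts, 14 had a region (18 regions). None was called, where 0% to 9.81% of all regions were in the 5 comparisons. Their smallest adjusted p was 0.056, for Eif3f in control eTregs against cTregs (0.43). The 90 mitochondrial ribosomal regions had no call for genotype and 1 for state, Mrps23, which was higher in Atg14-deficient eTregs (0.69, adjusted p = 0.042). In that comparison 4.41% of all regions were called higher. Their median differences between states were 0.12 in control and 0.16 in Atg14-deficient cells, close to the members' 0.11 and 0.17.

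Of 23 ribosome biogenesis genes, 22 had a region (31 regions), none of which was called for genotype, where 0.0228% of all regions were in eTregs and 0.0163% in cTregs. Between the states 1 was called higher in controls, where 2.01% of all regions were. In Atg14-deficient cells 1 was called higher and 1 lower, where 4.41% and 5.40% of all regions were. Gar1, a component of box H/ACA particles, was higher in control eTregs than in control cTregs (0.56, adjusted p = 0.011) and, short of the fold threshold, in Atg14-deficient cells (0.38, adjusted p = 0.033). Ubtf, which drives transcription by RNA polymerase I, was higher in Atg14-deficient eTregs (1.38, adjusted p = 0.0020), and Wdr12, a factor of large subunit assembly, was lower (-0.60, adjusted p = 0.020). The 13 regulators of ribosomal protein genes or their translation (22 regions) had no call in any comparison, where 0% to 9.81% of all regions were called. Eif4ebp1, the mTORC1 target that represses cap-dependent translation, came nearest, with 0.60 in Atg14-deficient cells (adjusted p = 0.053).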

How the data were processed

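Bulk ATAC-seq of 14 libraries in 4 groups was analysed. Per the methods, the authors trimmed and aligned the reads, marked duplicates, applied the transposase shift, retained the short, nucleosome-free class, ran peak calling library by library, pooled the peaks seen in 50% or more of a genotype's replicates into 1 set of regions and deposited raw counts of nucleosome-free reads over it. The submitters' processing notes name cutadapt 1.9, Picard 1.65, MACS2 2.1.0.20150603 and the builds mm10 and GRCm38, whereas the methods name mm9, another trimmer and another version of Picard. All 67207 regions on chromosomes lay within the ends of GRCm38, and of 58453 annotated coding starts 28298 had a region no farther than 200 bp away, a number that dropped to 2314 when the regions were moved by 20000 bp, so GRCm38.p6 (RefSeq) was used. Even values made up 81.4% of the counts.

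The members, gene lists and tests were chosen with earlier results of these data known. Groups were taken from the labels, and columns were matched to libraries by name. Counts were fitted by edgeR 4.0.16 (robust quasi-likelihood test, 4 group coefficients, scaling to total counts, filterByExpr) in R 4.3.3, for 5 contrasts. The biological coefficient of variation was 25.6%. p-values measure the spread between libraries, whose mice the labels do not name. DESeq2 1.42.0, other scalings, filters and blocks and each library left out served as alternatives. The steps were tested on simulated data. Named regions were members past the adjusted threshold, the 5 of smallest p per contrast, the 3 highest and 3 lowest by mean CPM and a fixed list of genes, of which some are not reported here. From each further list the 3 regions of smallest p per contrast could be named. Intervals were not computed, and precision is limited by depth, with a mean count of 104 per library for the median member.

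Same-numbered cTreg and eTreg libraries correlated in their deviations from the group means at 0.12, 0.24, 0.14 and 0.23 in Atg14-deficient cells. In controls the values were 0.054, 0.21 and 0.19. The labels do not say whether same-numbered libraries came from the same chimera. The main fit did not pair them, and a paired fit served as an alternative.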

Additional observations from a re-analysis of the deposited data

Results flagged for a closer look

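With 4 Atg14-deficient libraries per population, the named members were screened for a library apart from the other 3. In Atg14-deficient cTregs, replicate 1 stood below the others for Rpl27 (40.3 CPM against 43.6 to 43.7 CPM) and for Rps27a (76.4 CPM against 91.9 to 94.2 CPM), and replicate 4 for Rpl22l1 (109 CPM against 134 to 137 CPM). These were 3 of 70 groups of values screened, and chance alone places about 1 in 20 beyond the limit used.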

How the results depend on the processing

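No member was called for Atg14 loss in eTregs or cTregs, or for the interaction, under any alternative. The members' median log2 fold change for Atg14 loss in eTregs, 0.00 as reported, was -0.049 with TMM, -0.059 with GC-content offsets and -0.071 with these and the replicate block, and that of the interaction was -0.071 with GC-content offsets. Between the states in controls, 1 call became 2 with the scaling of DESeq2, its Wald test or the replicate block, with or without GC-content offsets, in each case by the addition of Rpl7a, and 3 with same-numbered cTreg and eTreg libraries paired, with Rpl7a (adjusted p = 0.011) and the intronic region of Rpl5 (-0.98, adjusted p = 0.047). Calls over all regions were 5.3% as reported, 5.42% to 6.82% under the former and 10.4% when paired. Single libraries left out gave 0 (without control cTreg replicate 1) to 3 (without control cTreg replicate 2) calls, where 1.8% and 6.11% of all regions were called. In Atg14-deficient cells 5 calls (9.81% of all regions) became 3 with GC-content offsets (9.56%) and 9 with that pairing (15.5%), and the median of 0.17 became 0.10 with GC-content offsets and 0.094 with these and the replicate block. Single libraries left out gave 1 (without eTreg replicate 4) to 6 (without cTreg replicate 4) calls, where 5.6% and 12.1% of all regions were called, and medians of 0.12 to 0.23. The replicate block alone joined same-numbered libraries across genotypes, which correlated at -0.22 to 0.09 within a state. It ended no call. By the unadjusted rule, 7 members for Atg14 loss in eTregs became 3 with GC-content offsets or the replicate block and 2 with both (6.36% of all regions against 6.17%, 5.69% and 5.57%), 0 in cTregs became 2 with GC-content offsets, with or without the block, or scaling to promoter counts (3.34% against 3.4% to 3.57%), and 16 between the states in Atg14-deficient cells became 8 with GC-content offsets and the block (23.1% against 22.6%). With members within 500 bp, the summed level was 3765 and 3718 CPM in control and Atg14-deficient cTregs and 3952 and 3866 CPM in the eTregs, against 3909, 3855, 4110 and 4028 CPM within 1 kb. In whole regions, which differ in length from the promoter windows, the ETS/GABP word was in 38.3% of members against 22.1% of other promoter regions and the ZBTB33-like word in 11.7% against 2.41%, both smaller ratios than in the windows. The SP/KLF word was in 73.4% and the E-box in 24.5% of members, against 70.2% and 15.8% of other promoter regions. Rpl27a was called in controls without control cTreg replicate 2 or control eTreg replicate 2, and apart from the calls given here or beside their genes no other named region crossed the threshold. The causes were not tested. With 3 and 4 libraries and a median mean count of 104, small differences were not detectable.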
